A study of Gallus gallus with 10 samples.

Results

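Female and male chicken embryos were compared in the retina at about embryonic day 4, on 10 retina libraries from 5 embryos. The labels give no sex, so the embryos were selected on their HINTW values. An embryo was called female when HINTW, a transcript of the W chromosome, had a normalised read count above 100 in both of its libraries, and male otherwise, which gave 2 female embryos (embryos 2 and 3, 4 libraries) and 3 male embryos (embryos 1, 4 and 5, 6 libraries), all 10 libraries of the series. The embryos were of the Dekalb white strain and wild type. At Hamburger and Hamilton stage 23 the lens was taken from 1 eye of each through a dorsal slit, and 6 h later the retina of that eye and of the unoperated eye of the same embryo were collected separately, so that each sex has lens-removed and control retinas and the embryo is the replicate. The female and male embryos thus differ in sex and also in every other way in which 2 embryos differ from 3 others, and these cannot be told apart here.

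In birds the female is the heterogametic sex: females carry a Z and a W chromosome, and males a pair of Z chromosomes. The W is gene-poor and most of the genes left on it have a partner on the Z. Birds have no counterpart of the whole-chromosome X inactivation of mammals, and compensation of Z genes in females is known to be partial and to vary from gene to gene. Avian somatic cells also carry their sex to a degree in themselves, rather than only through gonadal hormones.

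Levels are normalised read counts, which sum to 979286 to 1033235 per library after the authors' scaling. The spacing of the low values put the scaled library size, which only approximates the depth, at 18672000 to 26006000 reads. The retinal transcription factors RAX, PAX6, SIX3, SIX6 and LHX2 were present in all 10 libraries, with the lowest value, 27.3, that of RAX in the control retina of embryo 2. Embryo 5 stood apart. Over 17 genes that vary between embryos 2, 3 and 4, chosen after seeing the data, the retinas of embryo 5 differed by a mean of 0.801 on the log2 scale, against 0.231 to 0.338 within each other embryo. The choice of genes favoured small differences within embryos 2, 3 and 4 and did not use embryos 1 and 5. LOC770705, 2KTGRL, ESYT3 and ASPH carried the value of embryo 5, which was 0.252 over the other 13 genes, against 0.197 to 0.339 in the other embryos. The control library of embryo 5 also had the highest sums of pigment epithelium markers (846, against 322 to 444 in the other male libraries and 348 to 546 in the female libraries) and of periocular mesenchyme markers (303, against 104 to 162 and 123 to 187), and red cell markers of 378 against 30.0 to 234 and 44.2 to 319. Whether both libraries labelled as embryo 5 come from the same embryo was not tested, and neither was the part of these markers in any result. Counts on embryo means are therefore also given without embryo 5.

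HINTW, a W-linked relative of the histidine triad gene HINT1Z, chose the sexes, so its values and those of the other W transcripts are a description with no test. HINTW had 953 and 966 in the lens-removed and 988 and 1088 in the control retinas of the female embryos. The male embryos had 8.61, 3.13 and 8.94 in lens-removed and 6.04, 5.45 and 28.5 in control retinas. The 28.5 of the control retina of embryo 5 was the highest male value and still far below the lowest female one. ATP5A1W, the W copy of the alpha subunit of the mitochondrial ATP synthase, had 221 and 224 and 247 and 254 in female lens-removed and control retinas, against 4.25, 1.95 and 4.20 and 2.61, 2.13 and 7.26 in male ones. SMAD2W, the W copy of a transducer of activin and TGF-beta signals, had 56.5 and 54.2 and 57.7 and 62.6 in female retinas, against 0.918, 0.211 and 0.910 and 0.338, 0.308 and 1.34 in male retinas, in the same order of operation. All 3 transcripts therefore split the 10 libraries in the same way, with no overlap, and both libraries of each embryo fell on the same side.

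In all, 12 transcripts were limited to the female embryos, here meaning that the lowest female library exceeded the highest male library by more than 3-fold, a rule set after seeing the data. They were HINTW, HNRNPKL, TERAL2, ATP5A1W, LOC107049046, CHDB1, NIPBLL, UBAP2, LOC112530494, LOC107055485, SMAD2W and MIER3L, with female means from 999 for HINTW to 27.2 for MIER3L. HNRNPKL, a relative of the RNA-binding protein gene HNRNPK, had 302 and 320.5 and 369 and 379 in female lens-removed and control retinas and at most 8.26 in male ones. CHDB1, a relative of the chromatin remodeller CHD1Z, had 121 and 118 and 133 and 136 in female retinas and at most 3.13 in male ones. Male libraries held a median of 0.658% to 1.48% of the female mean over the 12 transcripts, and 2.86% in the control retina of embryo 5. UBAP2 is placed on Z by name in the RefSeq table of the later assembly GRCg7b, yet its transcript had 78.7 and 75.7 and 79.2 and 81.2 in female and at most 1.93 in male libraries. The deposited table lists only genes above 1 in at least 5 libraries, and for LOC112530494, MIER3L and SMAD2W the fifth of these was the control retina of embryo 5. A W transcript seen in the 4 female libraries alone could not have been listed, so 12 is not a count of the W transcripts of the retina.

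**Figure D1:**
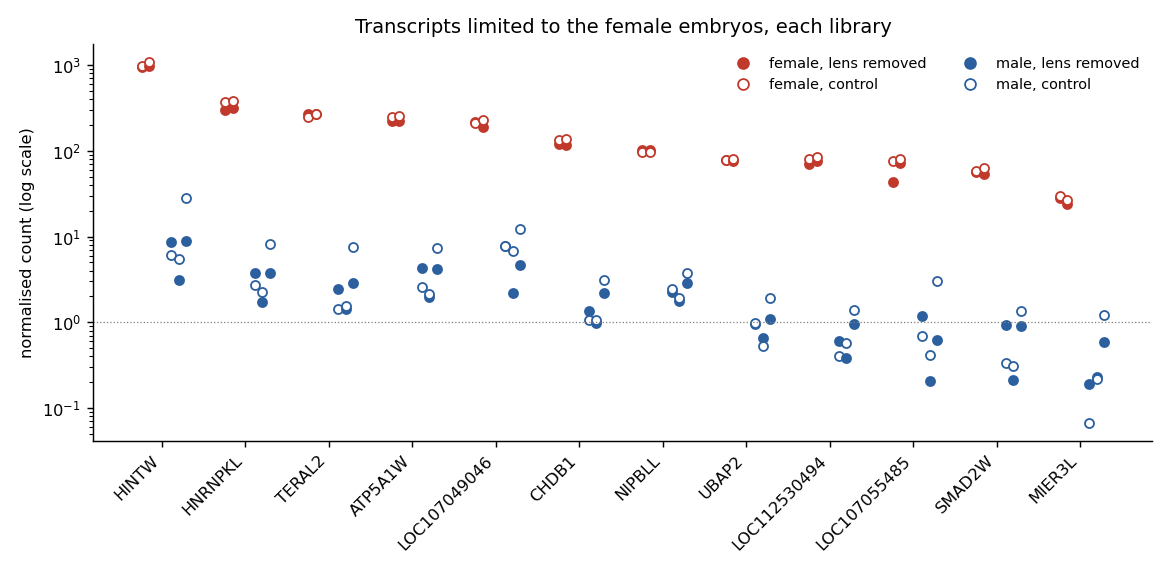
Normalised read counts on a log scale of the 12 transcripts limited to the female embryos, each point 1 library (red female, blue male; filled lens-removed, open control; embryos 2 and 3, then 1, 4 and 5, from left to right; the dotted line marks 1). Female points lie at 24.1 and above and male points at 28.5 and below, with the open point of embryo 5 the highest male value for each transcript.

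Most transcripts of the Z chromosome were lower in the female retina. Of 414 Z-linked genes tested, 255 (61.6%) were lower in females and 0 were higher, by limma on embryo means with Benjamini-Hochberg adjusted p under 0.05. Over all 9076 tested genes (those with a mean count of 10 or more), 2.89% were lower and 0.209% higher in females, and among the 8649 genes outside Z and W 0.0694% were lower and 0.0809% higher. Of the 19 higher genes, 12 were the transcripts limited to the female embryos, among them HINTW, which set the sexes. These were fitted with the rest and are described only. The class outside Z and W takes in genes with no assigned chromosome. Such genes made up 4 of its 6 lower genes, while 2 of 8304 autosomal genes were lower. Without embryo 5 the Z-linked count was 291 (70.3%), where 3.44% of all tested genes and 0.231% of those outside Z and W were lower. The female minus male log2 difference was negative for 396 of the 414 Z-linked genes, with a median of -0.61, against 0.01 outside Z and W. In linear terms the median Z-linked gene had 0.648 times the male level in females, and the median gene outside Z and W 1.01 times. The 10th and 90th percentiles over Z-linked genes were 0.534 and 0.909, and most genes lay between the ratio of chromosome copies and equality: 145 genes were below 0.6, 180 from 0.6 to 0.8, 72 from 0.8 to 1 and 17 at 1 or more. The median ratio was 0.651, 0.646 and 0.630 for genes with a mean of 10 to 50, 50 to 200 and 200 or more. Z-linked transcripts made up 2.57% to 2.79% of the normalised counts of the female libraries and 3.88% to 4.29% of those of the male libraries.

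**Figure D2:**
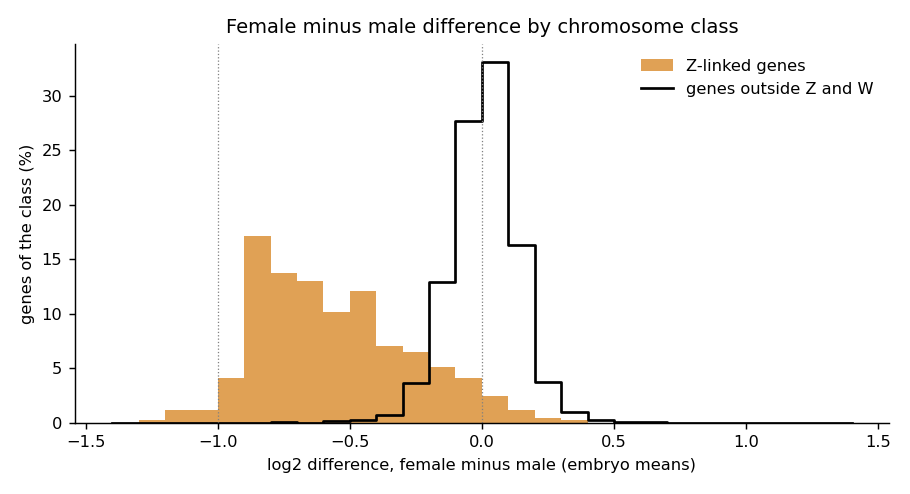
Female minus male log2 difference of embryo means (x axis, bins of 0.1) for 414 Z-linked genes (bars) and 8649 genes outside Z and W (line), as the percentage of genes of each class; dotted lines mark 0 and -1. The Z-linked genes have a median of -0.61, with 396 of them below 0, while the others have a median of 0.01.

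The Z-linked difference was present in each operation group taken alone. In lens-removed retinas 218 of 414 Z-linked genes (52.7%) were lower in females, with a median log2 difference of -0.64, and in control retinas 174 (42.0%), with a median of -0.55. Over all tested genes, Z-linked ones included, 2.46% were lower in lens-removed and 1.96% in control retinas. Outside Z and W these shares were 0.0462% and 0.0347%. The calls shared 145 genes, 66.5% of the lens-removed and 83.3% of the control list, but the libraries come in pairs from the same embryos, so the lists are not independent. For 298 Z-linked genes (72.0%) every female library was below every male library, against 0.382% of the genes outside Z and W. Against the mean of the males, the median Z-linked log2 value was -0.61 in each of the female embryos, and lay between -0.06 and 0.04 in the males. These p-values rest on 2 against 3 embryos, where an exact two-sided permutation of a single value cannot go below 0.2. Without embryo 2 or embryo 3, 1 female embryo was left, whose spread the fit takes from the males. Few Z-linked calls on embryo means remained then, and the cause was not tested. The median stayed between -0.59 and -0.62 whichever embryo was left out. On embryo means 101 Z-linked genes passed without embryo 4. Within an operation group the limma calls also depended on single male embryos. In control retinas 0 Z-linked genes passed without embryo 1, where 290 were lower at an unadjusted p under 0.05 and the median was -0.56. In lens-removed retinas 0 passed without embryo 4, where 320 were lower at an unadjusted p under 0.05 and the median was -0.62. The calls of both operation groups were also lost when a female embryo was left out. Without embryo 2 and without embryo 3 the medians were -0.54 and -0.57 in control retinas, and -0.65 and -0.63 in lens-removed retinas.

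The named Z-linked genes with the lowest female levels relative to males lay at 0.48 to 0.52 of the male level. FAM172A had 38.5 and 39.5 and 40.2 and 43.6 in female lens-removed and control retinas, against 85.6, 85.2 and 78.1 and 84.0, 88.8 and 82.4 in male ones (log2 difference -1.04, SE 0.075, adjusted p = 0.0021). XPA, the damage-recognition protein of nucleotide excision repair, had 97.4 and 93.6 and 111 and 120.4 in female retinas, against 218, 184 and 181 and 212, 226 and 198 in male retinas (log2 difference -0.94, SE 0.075, adjusted p = 0.0031). COX7C, a subunit of cytochrome c oxidase, had 81.2 and 79.9 and 95.6 and 100.3 in females, against 189, 160.2 and 150.3 and 187, 192 and 154 in males (log2 difference -0.94, SE 0.098, adjusted p = 0.0044). In these 3 genes each female library was below each male library. The rule that named them required this within each operation group. The other named genes of this kind were STARD4, a sterol carrier (mean 43.2 ± 0.438, n = 2 female embryos, against 85.3 ± 1.59, n = 3 male embryos, SD), ZFAND5 (51.0 ± 0.834 against 102 ± 5.73), SPIN1Z, which reads a methylated histone (97.7 ± 4.74 against 191 ± 14.4), EFNA5, an ephrin ligand of retinal axon mapping (36.9 ± 1.09 against 73.0 ± 6.03), CETN3, a centrin of the centrosome (42.7 ± 2.44 against 82.7 ± 9.06), KCMF1, a ubiquitin ligase (32.7 ± 0.487 against 63.9 ± 2.88), and CZH5ORF42 (55.5 ± 9.53 against 111 ± 15.5). All of them passed with limma adjusted p of 0.0154 or less.

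A few Z-linked genes of clear expression were at about equal levels in the sexes. With a mean of at least 50, 8 genes had a ratio of 1 or more, a set picked after seeing the data. HMGCS1, the synthase at the head of cholesterol synthesis, had 532 and 572 and 569 and 528 in female lens-removed and control retinas, against 595, 514 and 569.6 and 526, 514 and 394 in male ones. SMU1, a splicing factor, had 171 and 174 and 197 and 209.8 in females, against 175, 166 and 165 and 173, 190.2 and 149 in males. For NARS, an asparaginyl-tRNA synthetase, the values were 114 and 119.7 and 131 and 147 in females, against 122, 117 and 114 and 124, 133 and 124 in males. In NARS the sexes overlapped in both operation groups, and in HMGCS1 and SMU1 they overlapped in lens-removed retinas while both female controls were above the male ones. The other members were PSD3, the cytoskeletal linkers TLN1 and MAP1B, the scaffold gene IQGAP2 and LOC107052389, with log2 differences from 0.07 for PSD3 to 0.00 for LOC107052389. A difference that missed the threshold does not show that these genes are equal, as their SEs ran from 0.069 to 0.23 on the log2 scale. Without embryo 5 the difference was 0.28 for TLN1 (limma adjusted p = 0.30), -0.08 for IQGAP2 and -0.04 for LOC107052389, so near-equality of TLN1 and the sign of the other 2 rested on that embryo.

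For genes with both a Z and a W copy, females express a second transcript that males lack, and the copies can be added. Here the Z copies had 0.543 to 0.694 times the male level, and each sum was set beside the male sum, as a description chosen after seeing the data. HNRNPK with HNRNPKL summed to 1070 ± 29.4 in females and 1051 ± 58.0 in males (SD, n = 2 and 3 embryos), a ratio of 1.02. ATP5A1Z with ATP5A1W summed to 730 ± 18.1 in females and 876 ± 32.6 in males, a ratio of 0.834. SMAD2Z with SMAD2W gave 95.4 ± 0.404 in females and 69.0 ± 2.97 in males, a ratio of 1.38. MIER3 with MIER3L gave a ratio of 1.33 and CHD1Z with CHDB1 one of 1.26. HINT1Z with HINTW stood far from the rest, at 1080 ± 42.2 in females and 157 ± 7.99 in males, a ratio of 6.88, and HINTW alone was 12.3 times HINT1Z in females. Reads of near-identical copies can be shared out between them by the counting, so the level of each copy and the ratio of W to Z copy are uncertain, and whether each W copy makes a working protein was not examined.

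**Figure D3:**
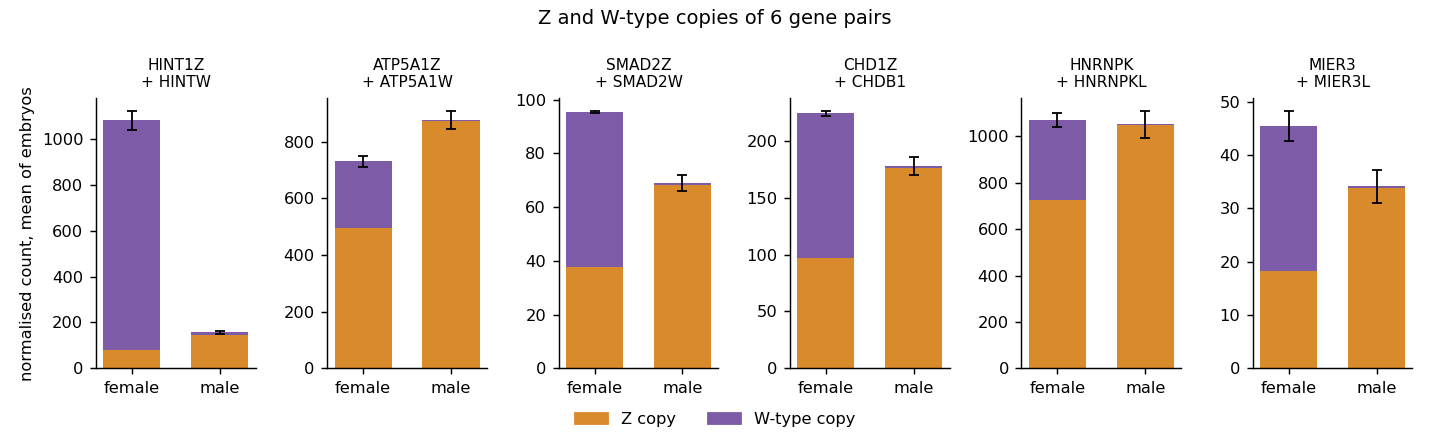
Mean normalised read count of the Z copy (orange) and the W-type copy (purple), stacked, of 6 gene pairs in female (left bar, n = 2 embryos) and male (right bar, n = 3) retinas; error bars are the SD of the sum over embryos. The female sum is level with the male sum for HNRNPK, below it for ATP5A1Z, and above it for HINT1Z, SMAD2Z, CHD1Z and MIER3.

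Among all 22 tested genes listed as Z partners of W genes, 20 were lower in females, SUB1 did not pass and UBAP2 was higher, beside 61.6% lower among all Z-linked genes. The 20 include ZFR, which has no chromosome in the table and also counts among the genes outside Z and W, and NEDD4L. Also among them are VCP, a segregase of the ubiquitin system (188 and 207 and 173 and 145 in female lens-removed and control retinas, against 258, 335 and 421 and 314, 279 and 410.3 in male ones), and RPL17, a protein of the large ribosomal subunit (573 and 581 and 593 and 641, against 1179, 999 and 864 and 1107, 1244 and 946). SUB1, a transcription coactivator, had means of 419.5 ± 22.0 in females and 520.0 ± 39.8 in males (log2 difference -0.32, SE 0.086, adjusted p = 0.2), and passed without embryo 5 (adjusted p = 0.019). It passed in lens-removed retinas (log2 difference -0.51, adjusted p = 0.038) and not in control retinas (-0.13, adjusted p = 0.59), while the test of the change by sex gave an adjusted p of 0.32. NEDD4L, a ubiquitin ligase, is placed on W by name in GRCg7b, but was found in both sexes and at a lower level in females (54.9 ± 0.673, against 89.5 ± 7.18 in males; log2 difference -0.69, SE 0.087, adjusted p = 0.0079). It was counted neither with the Z nor with the W genes.

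Genes that pattern the axes of the eye were lower in females in 2 cases, both on Z, beside 61.6% lower among all Z-linked genes. ALDH1A1, the retinoic acid synthesising enzyme of the dorsal retina, had 449 and 416 and 508 and 540.3 in female lens-removed and control retinas, against 846, 811 and 759 and 857, 835 and 773 in male ones (log2 difference -0.77, SE 0.071, adjusted p = 0.0035). EFNA5 and ALDH1A1 were 2 of 20 tested genes of the dorsal, ventral, nasal and temporal list, of which 4 lie on Z. The other Z-linked members, the transcription factor genes FOXD1 and NR2F1, did not pass. RAX, a Z-linked homeobox gene of the eye field, had 54.5 and 56.3 and 27.3 and 30.1 in females, against 57.7, 87.1 and 76.2 and 50.9, 45.7 and 46.0 in males (log2 difference -0.55, SE 0.091, adjusted p = 0.025). It was lower in every female control library than in any male one, but in lens-removed retinas the groups came close, at 56.3 in a female and 57.7 in a male, and that comparison did not pass (adjusted p = 0.69). RAX was the 1 of 15 retinal progenitor genes that passed and also the 1 of them on Z. PAX6, SIX3, SIX6 and LHX2 had log2 differences from -0.10 to -0.02, none of which passed.

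Signalling genes of the Z chromosome passed in part. Of 18 tested, 17 on Z, 7 were lower in females, where 61.6% of all Z-linked genes were lower: the hedgehog receptor gene PTCH1 (29.7 ± 1.25, against 52.8 ± 2.91 in males), the inhibitory SMAD gene SMAD7 (10.8 ± 0.510, against 19.6 ± 1.65), APC of the Wnt pathway (123 ± 3.39, against 179 ± 3.89), EFNA5, LIFR, GNAQ and the corepressor gene TLE1. The other 11 did not pass, among them VLDLR, with a log2 difference of 0.18, and KANK1, with -0.10. Without embryo 5, 9 were lower, where 70.3% of all Z-linked genes were, and the added ones were the cytokine receptor gene IL6ST (log2 difference -0.39, adjusted p = 0.013) and the nuclear receptor gene RORB (-0.51, adjusted p = 0.024). With all embryos the list's median log2 difference was -0.45, against -0.61 over all Z-linked genes. Of the list of gonadal sex and steroid genes only 4 of 30 were tested, of which 2 lie on Z, where 61.6% of genes were lower, and HSD17B4, a Z-linked peroxisomal enzyme with a steroid dehydrogenase domain, was lower in females (65.2 ± 2.02, against 124 ± 9.75; log2 difference -0.93, SE 0.085, adjusted p = 0.0035). SOX9, LHX9 and GHR did not pass.

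Outside Z and W few genes differed. This class leaves out TERAL2, LOC112530494 and MIER3L, which have no chromosome in the table and were set apart because they were limited to the female embryos, so its count of higher genes is lowered by that choice. On embryo means 13 of 8649 genes (0.15%) passed, 7 higher and 6 lower in females, and 388 (4.49%) had an unadjusted p under 0.05. EXOSC2, a subunit of the RNA exosome, had 122 and 130.1 and 169 and 179.8 in female lens-removed and control retinas, against 93.9, 82.7 and 85.4 and 118, 121 and 107 in male ones (log2 difference 0.56, SE 0.073, adjusted p = 0.0086), and passed in lens-removed (adjusted p = 0.038) and control retinas (0.024) alone. EXOSC2 was named by a rule that required its female values to lie above its male values within each operation group. NAA40, an acetyltransferase of histone N termini, had 104 and 103 and 102 and 103 in females, against 81.8, 58.6 and 60.7 and 81.6, 84.7 and 80.9 in males (log2 difference 0.47, SE 0.089, adjusted p = 0.041). APOPT1, which takes part in the assembly of cytochrome c oxidase, had 48.7 and 44.5 and 52.4 and 47.4 in females, against 28.0, 27.6 and 29.1 and 30.5, 32.3 and 41.7 in males (log2 difference 0.61, SE 0.11, adjusted p = 0.029). NEIL3, a DNA glycosylase of base excision repair, had means of 22.7 ± 0.269 in females and 15.2 ± 0.855 in males, BCCIP, a partner of BRCA2, 96.9 ± 2.46 and 70.3 ± 4.85, and CCDC59 64.2 ± 0.847 and 48.6 ± 1.73 (SD, n = 2 and 3).

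Among the lower genes, NIPSNAP3L had 44.9 and 42.1 and 40.0 and 45.1 in female lens-removed and control retinas, against 82.8, 76.9 and 72.0 and 72.0, 78.4 and 65.1 in male ones (log2 difference -0.78, SE 0.085, adjusted p = 0.0049). GRIP1, a scaffold for glutamate receptors, had 88.0 and 82.5 and 82.3 and 65.1 in females, against 129, 130.2 and 127 and 128, 108 and 173 in males (log2 difference -0.73, SE 0.11, adjusted p = 0.018). ZFR, a zinc finger RNA-binding protein, had 118 ± 3.61 in females and 162 ± 9.47 in males, CHIC2 had 32.1 ± 0.421 and 43.2 ± 0.857, and LOC101749363 6.40 ± 1.20 and 13.4 ± 0.814. NIPSNAP3L, ZFR, LOC101749363 and 2KTGRL have no chromosome in the table used, so that 4 of the 6 lower genes could not be placed, and ZFR is also one of the listed Z partners.

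The levels of ASPH and 2KTGRL differed between embryos as well as between the sexes. ASPH, an aspartate beta-hydroxylase, had 139 and 235 and 159 and 285 in lens-removed and control retinas of embryos 2 and 3, against 44.4, 45.9 and 144 and 43.1, 46.7 and 46.6 in embryos 1, 4 and 5 (log2 difference 1.81, SE 0.32, adjusted p = 0.032). The lens-removed retina of embryo 5, at 144, lay among the female values and its control retina, at 46.6, with the males. 2KTGRL had 8.07 and 6.77 and 7.41 and 5.64 in females, against 31.3, 21.8 and 35.2 and 23.7, 20.1 and 9.10 in males, with the control retina of embryo 5 near the female values. A difference of over 2-fold between the retinas of 1 embryo was found for 4 of the 17 genes described above, in embryo 5 alone. Of the other 2, LOC770705 had 0.777 in the lens-removed and 59.4 in the control retina of embryo 5, and ESYT3 had 12.7 and 2.94.

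**Figure D4:**
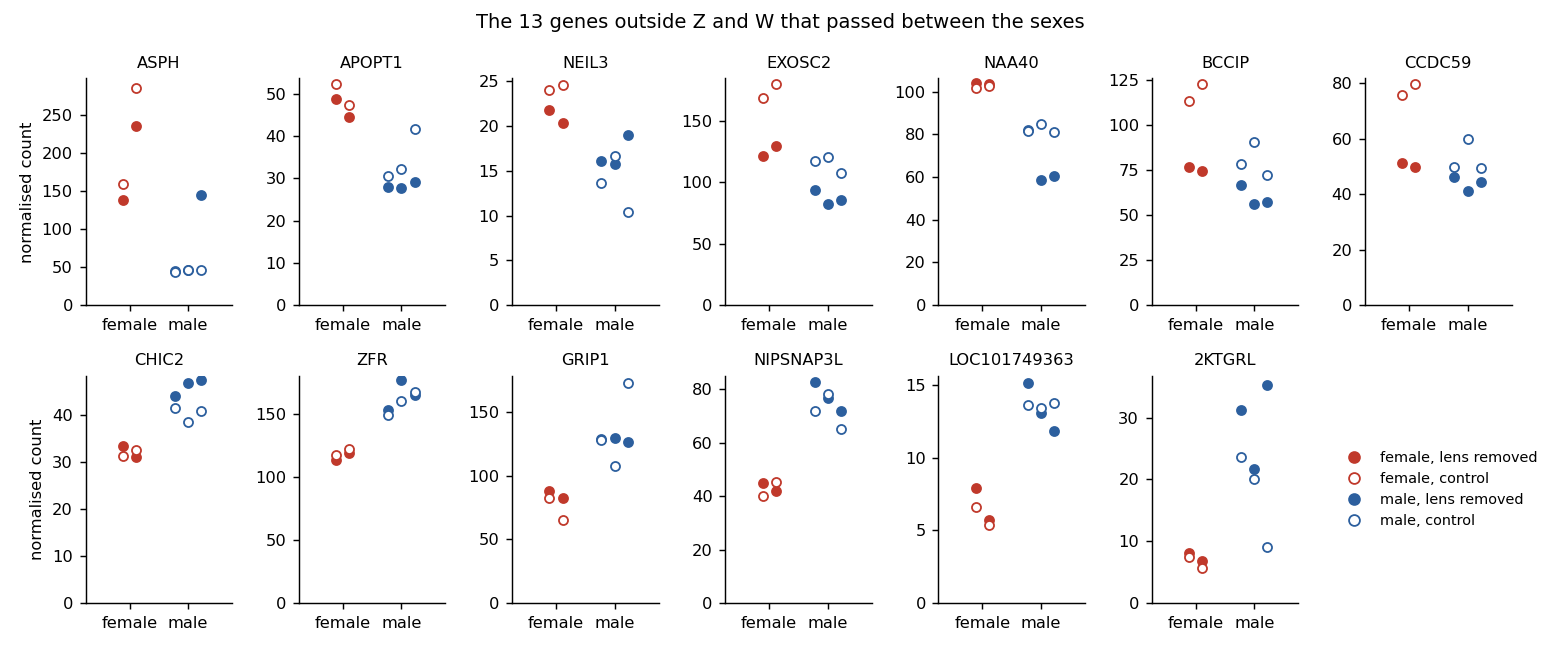
Normalised read counts, from 0, of the 13 genes outside Z and W that passed on embryo means, 1 panel per gene and 1 point per library (red female left, blue male right; filled lens-removed, open control). In ASPH the filled male point of embryo 5 at 144 lies with the females.

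These counts depended on which embryos were fitted and on how the libraries of an embryo were combined. Without embryo 5, 52 genes outside Z and W passed (0.601%), 32 higher and 20 lower in females, and they included all 13. With all 10 libraries and the embryo as a replicate block, 30 passed, of which 11 were among the 13. Without embryo 1, 7 passed, of which 5 were among the 13, and without embryo 4, 1 passed. Leaving out embryo 2 or embryo 3 left 1 female embryo, and the counts of those fits are not set beside these.

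Chaperone transcripts, of which 12 of 13 tested lie outside Z and W, had a median female minus male difference above that of the genes outside Z and W, and 0 of 13 passed on embryo means. HSP90AA1, a cytosolic chaperone of many kinases and receptors, had 3069.7 and 3015 and 4723 and 4758 in female lens-removed and control retinas, against 2454, 2263 and 2568 and 3209, 3915 and 3209.9 in male ones (log2 difference 0.40, SE 0.079, adjusted p = 0.053). HSPA8, the constitutive cytosolic HSP70, had 2992 and 3096 and 4769.8 and 5266 in females, against 2479, 2282 and 2814 and 3467, 4342 and 3219 in males (log2 difference 0.37, SE 0.084, adjusted p = 0.1). In both genes the female libraries were above the male ones within each operation group. Over the 13 tested members the median log2 difference was 0.22, against 0.01 for the genes outside Z and W, and 0 of 13 passed. Without embryo 5 the median was 0.18 and 5 of 13 were higher in females, HSPH1, HSP90AA1, HSPA8, HSPA4L and HSPD1, where the background of higher genes was 0.37%. Both female controls were above all male controls for 9 of the 13, against 20.9% of the genes outside Z and W, and for 4 of 13 in lens-removed retinas, against 12.3%. Chaperone transcripts can vary together, so these are not counts of independent genes.

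The 13 transcripts placed on the mitochondrial genome by name, all of protein-coding genes, made up 8.75% to 9.73% of the counts of female libraries. In male libraries they made up 7.14% to 8.38%. EYY68_mgr01, which by its name may be a mitochondrial rRNA, has no chromosome in the table used and was not counted with them. Without embryo 5 it was lower in females (limma log2 difference -0.76, SE 0.11, adjusted p = 0.019). All 13 had a positive female minus male difference, with a median of 0.22, against 0.01 for the genes outside Z and W. Of the 13, 0 passed, beside 0.15% of the genes outside Z and W. COX1, the catalytic subunit of cytochrome c oxidase, had means of 34229 ± 2779 in females and 28279 ± 2704 in males, and ATP8 of the ATP synthase 1558 ± 77.6 and 1283 ± 96.2 (adjusted p = 0.76 and 0.33; 0.42 and 0.029 without embryo 5). Without embryo 5, 0.601% of the genes outside Z and W passed. The 13 mitochondrial transcripts share their transcription and are not independent of each other.

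With all 5 embryos no gene of the other lists passed between the sexes, where 0.15% of all genes outside Z and W did. This was so for 12 ganglion cell and early neuron genes, 22 cell cycle genes, 15 anterior rim genes, 17 genes of low oxygen and glycolysis, and 23 genes that lead the response to lens removal. Without embryo 5, 3 of the 23 genes that lead the response were higher in females, beside 0.37% of all genes outside Z and W. They were the chaperone genes HSPH1 and HSPA8 and the histone chaperone gene NPM3 (log2 difference 0.35, adjusted p = 0.020, against 0.24 and 0.69 with all embryos). Markers of other tissues did not pass with or without embryo 5: 7 pigment epithelium, 5 mesenchyme, 5 red cell and 2 lens genes. Their median log2 differences without embryo 5 were 0.51 for pigment epithelium, with 7 of 7 above 0, 0.17 for mesenchyme, with 5 of 5, and 0.33 for red cells, with 5 of 5. With all embryos these medians were 0.08, -0.03 and -0.14. The part of these tissues in the calls made without embryo 5 was not tested. Among the neuron, cell cycle and glycolysis genes, DCX, a microtubule protein of young neurons, had 1543 ± 148 in females and 1523 ± 129 in males, MKI67, a marker of cycling cells, 980.1 ± 21.8 and 909 ± 71.3, and GAPDH 3946 ± 246 and 3623 ± 337. DCX does not stand for the 12 neuron genes, of which 8 had a log2 difference above 0. They ran from 0.44 for ATOH7 (SE 0.22) to -0.29 for TUBB3 (SE 0.19). Nor do MKI67 and GAPDH stand for their lists. Of the 22 cell cycle genes 14 were above 0, and the list ran from 0.25 for BUB1B to -0.13 for MCM2. Of the 17 genes of low oxygen and glycolysis 8 were above 0, and the list ran from 0.25 for TPI1 to -0.32 for the Z-linked CA9. In bulk samples fewer cells of a type and less RNA per cell cannot be told apart.

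The change after lens removal was then compared between the sexes, as the within-embryo log2 difference of lens-removed minus control retina. By limma 0 of 9076 genes differed at an adjusted p under 0.05, with a lowest adjusted p of 0.32, and 1397 (15.4%) had an unadjusted p under 0.05. With 2 against 3 embryos, a missed threshold does not show that the sexes respond alike. The 15.4% is above the share of 0.05 that independent genes without a difference would give, but the genes of an embryo are not independent. Without embryo 5 that number was 745, without embryo 3 it was 195, and without embryo 4 it was 2881 (31.7%) with a lowest adjusted p of 0.053, and 0 genes passed in each. Of the 23 genes that lead the response, all 23 changed in the same direction in 5 of 5 embryos. They were picked for their response in these libraries, so that this agreement is a description. FGF8, a fibroblast growth factor of the early eye, changed by 1.83 and 1.52 in the female embryos, against 0.97, 1.14 and 1.70 in the male ones. WNT2B, a Wnt ligand of the eye's rim, changed by -2.76 and -2.06 in females, against -0.85, -2.54 and -2.60 in males. For CGTL the values were 1.79 and 1.81 in females and 1.68, 1.54 and 1.61 in males. In WNT2B the smallest change was that of embryo 1, a male, and the female and male changes overlapped in FGF8 and WNT2B and not in CGTL.

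Of the 23 genes 4 had an unadjusted p under 0.05, a share near the 15.4% of all tested genes, and their values are given as a description. LDHA, which makes lactate from pyruvate, changed by 0.78 and 0.66 in females, against 1.09, 1.10 and 1.02 in males (difference of the changes -0.35, SE 0.10, unadjusted p = 0.0085, adjusted p = 0.32). ALDH1A2, a retinoic acid synthesising enzyme, changed by -2.49 and -2.56 in females, against -1.11, -2.17 and -1.88 in males, and DUSP6, a phosphatase of ERK kinases, by 1.50 and 1.57, against 0.81, 1.39 and 1.19. JUP, or plakoglobin, changed by 1.18 and 1.35 in females, against 0.22, 1.18 and 0.65 in males. The female and male changes did not overlap for 9 of the 23, against 38.4% of all tested genes. The median difference of the changes was 0.07 over the 23 genes and -0.02 over all tested genes.

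**Figure D5:**
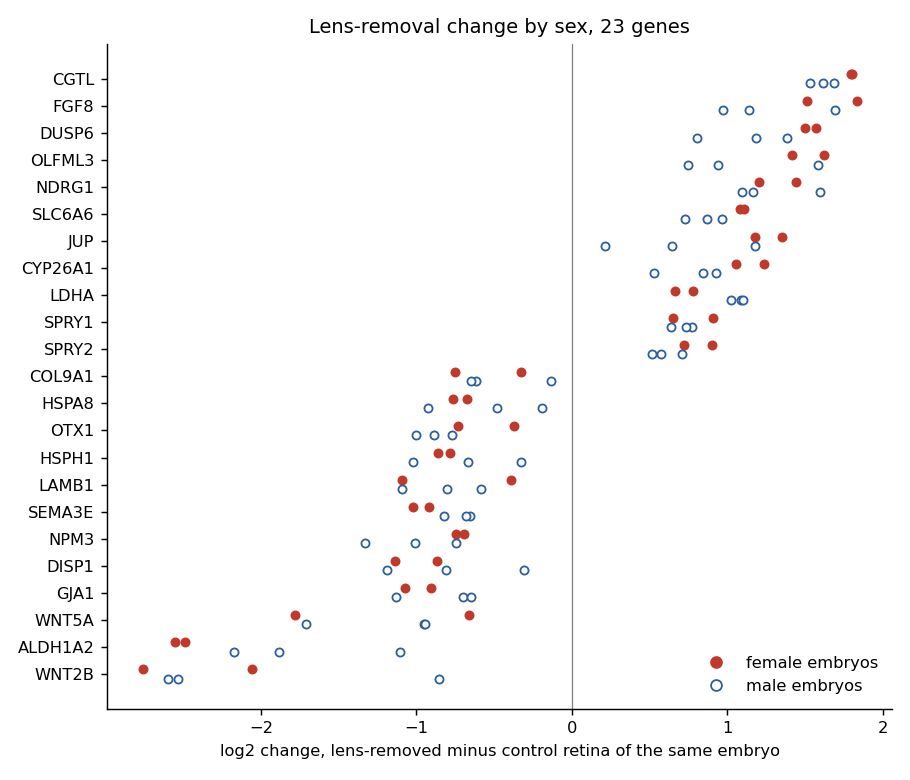
Within-embryo log2 change (lens-removed minus control retina) of 23 genes that lead the response to lens removal, each point 1 embryo (filled red, female, upper row of each gene; open blue, male, lower row). The genes were picked for their response in these libraries. Each gene has all 5 points on the same side of 0, and 0 of the 23 genes passed for a difference between the sexes.

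Lowest in unadjusted p over all genes were GDF3, SOX13, SLC5A6, PDLIM7 and LMF2. GDF3, a TGF-beta family ligand, changed by 1.08 and 1.00 in females, against -0.10, 0.35 and -0.04 in males (difference of the changes 0.97, SE 0.16, unadjusted p = 3.2e-04, adjusted p = 0.32). SOX13, an SRY-box transcription factor, changed by 1.41 and 1.57 in females, against 0.54, 0.80 and 0.55 in males (difference of the changes 0.86, SE 0.15, unadjusted p = 3.8e-04, adjusted p = 0.32). SLC5A6, a vitamin transporter, changed by -0.31 and -0.06 in females, against -1.09, -0.84 and -0.98 in males, PDLIM7 by 0.76 and 0.93, against -0.15, 0.16 and -0.22, and LMF2 by 0.45 and 0.62, against -0.39, 0.03 and -0.32. In each of the 5 the female changes were above all male changes, which follows largely from their choice by this p, and none passed over the genes tested. Of all tested genes 38.4% had no overlap in either direction, and the share in this direction alone was not counted. Z-linked genes had median changes of -0.05 and -0.14 in the female embryos 2 and 3. In the male embryos 1, 4 and 5 these were 0.03, -0.01 and 0.03. Outside Z and W the medians were 0.002 and -0.021 in the females, and -0.012, 0.015 and -0.014 in the males. The median difference of the changes was -0.13 on Z and -0.01 outside Z and W. Of the Z-linked genes, 53 of 414 (12.8%) had an unadjusted p under 0.05 for the difference by limma, beside 15.4% of all tested genes.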

How the data were processed

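Retinas of 5 embryos were sequenced as stranded libraries of polyadenylated RNA with 75 bp paired end reads, per the labels' protocols, and all 10 libraries carry batch number 128. The deposited values are a signal, read counts per gene after scaling of each library by the authors. Build GRCg6a, HISAT2 2.1.0 and featureCounts (with Subread 1.6.2) appear in the submitters' processing notes, beside Trim Galore 0.6.4, FastQC 0.11.8 and SAMtools 1.9. The method of scaling, the strand setting and the other counting options are not given in the sources used here. Of the values up to 400 reads, 89.8% to 91.6% were whole multiples of 1 read within 0.01 reads, too few for a count model.

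The 9076 of 12464 genes (72.8%) whose mean count was 10 or more were fitted by limma 3.58.1 (R 4.3.3) on log2(value + 1), with a variance trend, two-sided, Benjamini-Hochberg adjusted over all tested genes, threshold 0.05. This scale understates differences of low genes. Control and lens-removed log2 values were averaged per embryo, then each operation group was fitted alone, then the within-embryo change. For the change, the variance trend was set to follow expression level after a first fit had let it follow the change itself; 0 genes passed in both. The embryo-mean fit was tried on simulated data with genes independent of each other, and the other fits were not. The simulation held no effects shared between the genes of an embryo, so it cannot show how the fit handles these.

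Chromosomes came by name from a RefSeq table of GRCg7b (11306 genes by symbol, 221 by synonym, 83 by the file's own symbol and 49 by gene ID), not the files' build, so no coordinates or sequences are given. The embryo numbers pair the libraries, per the labels: deviations from group means correlated at 0.31, 0.76, 0.45, 0.68 and 0.59 in embryos 1 to 5 over all tested genes, and at 0.11, 0.46, 0.077, 0.48 and 0.57 over genes outside Z and W. The members, 16 gene lists and the naming rule were chosen with earlier results of these data known. The rule named W genes and Z partners, the 10 highest and lowest passing genes with no overlap and a mean count of 50 or more, taken separately for Z and other genes, up to 4 passing genes of a list or else its 2 of highest mean, and the 5 lowest p for the change. Genes named after their values were seen are the rest of the 13 outside Z and W, the Z genes not lower, the mitochondrial genes and those that passed without embryo 5. Each fit was repeated with pseudocounts of 0.5 and 5, with all listed genes, with means of 50 or more, and with a robust prior. Each was also repeated with trimmed-mean rescaling (computed directly, not with the package first planned), centring on genes outside Z and W, and each embryo left out. All 10 libraries were fitted with the block for the difference between the sexes only, and without it also for the change by sex. Python 3.11.15, pandas 2.3.3, numpy 2.4.6 and matplotlib 3.10.9 were used.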

Additional observations from a re-analysis of the deposited data

Results flagged for a closer look

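Within each sex the libraries were searched for single values far from the others (a gap to the nearest library above the 95% critical value of Dixon's test). Of 304 groups 18 were picked out (5.92%), and 12 of the 18 were the control library of embryo 5. For independent values chance gives about 1 in 20. The libraries are paired by embryo and each group pools lens-removed and control retinas, so the share cannot be read against that rate.

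In the male libraries the control of embryo 5 stood apart for the W-type transcripts HINTW (28.5), HNRNPKL (8.26), TERAL2 (7.57) and LOC107055485 (3.06) and for the sum of the W markers (45.3, against at most 17.9 in the other male libraries). It also stood apart for the pigment epithelium genes TRPM1 (325) and PMEL (199.8) and the sum of the pigment list (846), the sum of the mesenchyme list (303), the Wnt ligand WNT5A (57.1), GRIP1 (173) and APOPT1 (41.7). The lens-removed library of embryo 5 stood apart for ASPH (144) and BTF3 (176), and the control of embryo 4 for UBE2R2 (68.5).

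In the female libraries TERAL2 was low in the control of embryo 2 (245), ZNF532 was high in its lens-removed retina (102), and CRYAB was high in the control of embryo 3 (29.0).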

How the results depend on the processing

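No named gene that passed, with all embryos or under an alternative, changed sign under any alternative run. Among the 136 named genes, differences that did not pass changed sign in 23 genes without embryo 5, in 8 to 16 without another embryo and in 5 with centring on genes outside Z and W. Without embryo 5 the median changed sign in 6 of 16 lists, among them red cells (0.33, against -0.14), mesenchyme (0.17, against -0.03) and lens (-0.04, against 0.07). The counts of higher genes that follow are taken over all tested genes, those limited to the female embryos included. With genes of a mean of at least 50, 10 were higher and 144 lower in females on embryo means, 7 of them outside Z and W, 8 higher and 130 lower in lens-removed retinas, 10 higher and 116 lower in control retinas, and 140 Z-linked genes were lower. All 10 libraries without the replicate block gave 47 higher and 49 outside Z and W, with p-values too small since the libraries of an embryo are not independent. With the replicate block (correlation 0.205) 28 were higher, 302 lower and 30 outside Z and W, and the block changed no other count by over 1.5 times. The Z-linked median was -0.54 with a pseudocount of 5 and -0.55 with no filter, where low genes weigh more. Leaving out each embryo in turn gave 12 to 44 higher and 1 to 312 lower genes on embryo means and 0 to 52 outside Z and W. In lens-removed retinas it gave 12 to 28 higher and 0 to 234 lower, in control retinas 9 to 22 higher and 0 to 235 lower, and 1 to 291 Z-linked genes were lower. With 1 female left her spread is taken from the males. Control retinas without embryo 1 (0 lower) and lens-removed retinas without embryo 4 (1 lower) lost their calls with both females present; the cause was not tested. For the change by sex 0 genes passed in all alternatives, with 195 to 2881 unadjusted. Of the 136 named genes, 46 lost their call without embryo 2, 45 without embryo 3, 24 without embryo 4 and 11 without embryo 1. The estimated scaled library size was lowest in the lens-removed library of embryo 5 (18672000 reads, against 22760000 or more in the others). The part of depth and of the number of embryos in the precision was not compared.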
